A study of Mus musculus with 3 samples.

Results

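Lower spinous keratinocytes are the cells of the first layers above the basal sheet of the epidermis, and 1527 of the 5340 ear epidermis cells kept met the rule for them. A kept cell had at least 500 detected genes and at most 10% of its unique molecular identifiers (UMIs, the counted mRNA molecules) on mitochondrial genes. A cell was then called lower spinous where Krt1 and Krt10 together held 0.5% or more of its UMIs, Krt5 and Krt14 together under 0.5%, and Lor under 1%. It also had fewer than 10 UMIs of the stress genes Krt16 and Sprr1b and under 0.1% of UMIs on F3, Mboat2, Dsc1 and Kctd12, 4 genes that mark the upper spinous layer here. All 3 libraries, replicates 1 to 3, came from the ear skin of C57BL/6N mice aged 9 weeks with no treatment or genetic change named, so there is no treated or mutant group. Dispase lifted the epidermis off the dermis, trypsin with EDTA followed, and cells were teased off with tweezers from its basal face and frozen (how far this selects among layers was not tested). No source states whether the 3 replicates were separate animals or how many mice went into each, so p-values measure only the spread between these libraries, which may be technical.

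A basal keratinocyte sits on the basement membrane, holds on to it through integrins and hemidesmosomes, and can divide. When it commits to differentiation it leaves the membrane and the cell cycle and exchanges the keratin pair Krt5 and Krt14 for Krt1 and Krt10. Spinous cells build many desmosomes, the junctions that give the layer its prickly look. They also start the lipid and protein syntheses that the granular layer later turns into the cornified barrier.

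The lower spinous class held 269 of 944 kept cells in replicate 1 (28.5%, exact 95% binomial interval 25.6% to 31.5%), 682 of 2212 in replicate 2 (30.8%, 28.9% to 32.8%) and 576 of 2184 in replicate 3 (26.4%, 24.5% to 28.3%). The intervals cover counting error only. Its cells were deep, with a median of 20271, 12723.5 and 14206 UMIs in replicates 1, 2 and 3, against 11834, 7332.5 and 8544 in basal cells and 24408, 17929 and 18181.5 in upper spinous cells. The 4 classes set beside it were 2395 basal cells (Krt5 and Krt14 at 0.5% or more, Krt1 and Krt10 under 0.5%), 190 transitional cells (both keratin pairs at 0.5% or more), 490 upper spinous cells (the same rule as for lower spinous cells, but with the 4 upper genes at 0.1% or more) and 415 granular cells (Lor at 1% or more). These gates share cuts: 29 lower spinous cells lay just under the Krt5 and Krt14 limit (0.4% to 0.5%) and 28 cells just over it (0.5% to 0.6%), and 64 lay just under the upper gene limit (0.08% to 0.1%) with 61 just over (0.1% to 0.12%). A further 36 lower spinous cells held 0.5% to 0.6% of UMIs on Krt1 and Krt10, and 17 cells were kept out at 0.4% to 0.5%.

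Cells were thus selected on their own UMI shares of these gate genes, which are given here as a description only. The median cell had 1.42%, 1.11% and 1.32% of its UMIs on Krt1 and Krt10 in replicates 1, 2 and 3. Krt5 and Krt14 had no UMI at all in 53.5%, 57.2% and 49.5% of the cells, and Lor had none in 68.4%, 74.0% and 57.8%. The 4 upper genes sat at a median of 0.00705%, 0.00687% and 0.00864%. Marker genes of other skin cells were close to 0 in the summed profiles. In CPM (the UMIs of a gene scaled to the size of the summed profile), fibroblast markers together gave 0.109 to 0.71, endothelial markers 0.217 to 0.71, melanocyte markers 0.109 to 0.888 and T cell markers 0.227 to 0.888. Langerhans cell markers reached 16.2 to 27.0 CPM, against 11.5 to 23.9 in basal cells, and upper follicle and sebaceous markers 151 to 237 CPM, against 133 to 259. The near-equal sums of the latter hide opposite changes. By the test described below, 4 of these 5 markers fell and 1 rose against basal cells, where 32.7% of all genes fell and 29.7% rose. Hair follicle stem cell markers lay far below the basal class, at 7.81 to 18.1 against 175 to 333 CPM. Most of both sums was Postn, which averaged 10.8 and 232 CPM. It is described below as a gene of the basal zone, so these sums say little about follicle cells. Erythroid markers reached 4.67 to 8.34 CPM, against 0 to 0.177 CPM in basal cells.

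Of the 5 genes proposed as markers of the layer, Krt10 belongs to the rule, and the other 4 were chosen with results of these libraries known, so their levels are a description. Mt4, a metallothionein of stratified epithelia that binds zinc and copper, came closest to marking this layer. It stood at 6799, 5406 and 6251 CPM in lower spinous cells of replicates 1, 2 and 3, against 182.9, 126.5 and 149.5 in basal, 2604, 1757 and 1775 in transitional, 1694, 1166 and 2049 in upper spinous and 527.2, 276.3 and 226.4 in granular cells. The libraries of the lower spinous class lay above those of every other class, with a mean 40.6-fold over basal and 3.78-fold over upper spinous cells. With every cell thinned to 3000 UMIs, Mt4 was seen in 98.5%, 98.0% and 97.7% of lower spinous cells, so it was carried by nearly the whole class.

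The other proposed markers differed less between the lower and the upper spinous class. Serpinb12, a clade B serpin of epithelia, had 359.5, 294.0 and 287.4 CPM in lower spinous and 264.0, 183.3 and 236.8 CPM in upper spinous cells. These groups did not overlap, and lower spinous cells were 0.47 ± 0.14 (SE) higher on the log2 scale, or 1.38-fold. Alox12e, which encodes an epidermal 12-lipoxygenase, had 363, 433.2 and 435.4 CPM in lower spinous and 413.4, 468.6 and 517.9 CPM in upper spinous cells, and the groups overlapped. Endou, an endoribonuclease, had 181.4, 173.1 and 218.4 CPM against 127.8, 107.7 and 152.5 CPM in upper spinous cells, with no overlap and a log2 difference of 0.57 ± 0.11 (SE), or 1.49-fold. All 3 were rare in basal cells, at 7.72 CPM or less in each library. The 5 markers summed to 18111 to 21976 CPM in lower spinous libraries and to more, 22128 to 28667 CPM, in upper spinous ones, where Krt10 alone had 20202 CPM or more.

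**Figure D1:**
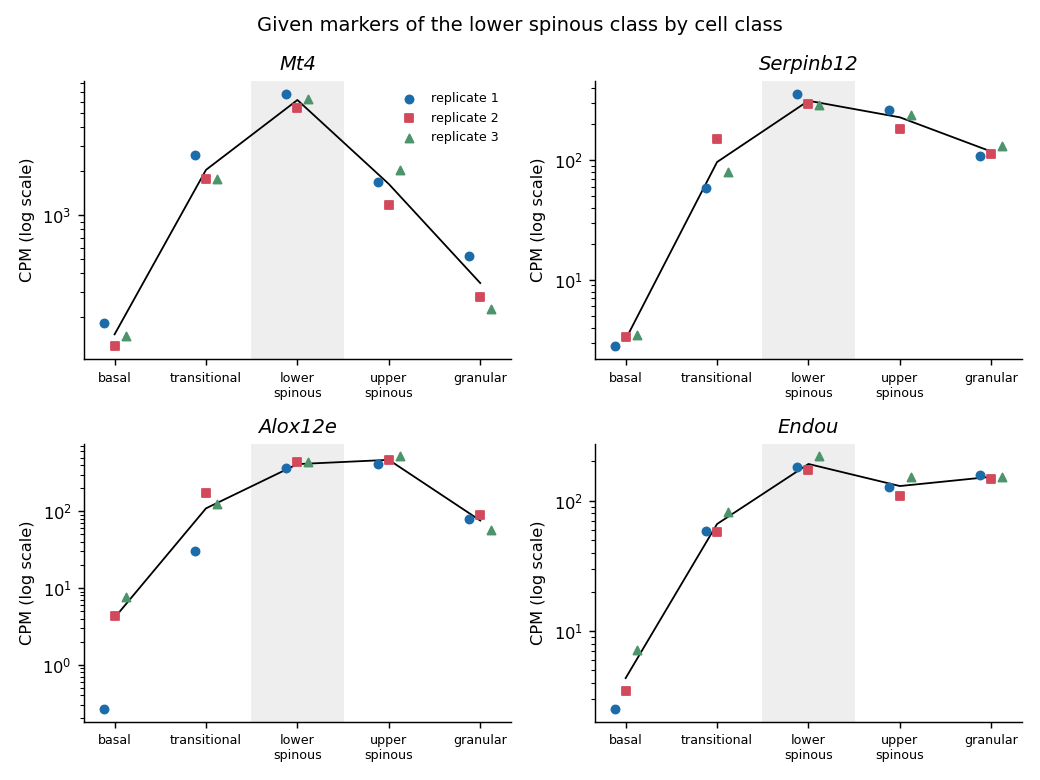
Level of 4 proposed markers (vertical axis, CPM on a log scale) in 5 keratinocyte classes (horizontal axis). Points are the 3 libraries, lines join class means and the lower spinous class is shaded. Mt4 is highest in lower spinous cells in all 3 libraries, whereas Alox12e overlaps with upper spinous cells.

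Mt4 is encoded on chromosome 8 at chr8:94137197-94139031 (GRCm38, plus strand), in a cluster with Mt3 (chr8:94152607-94154146), Mt2 (chr8:94172664-94173568) and Mt1 (chr8:94179082-94180327). The genes of the cluster did not follow one another. Mt2, whose product buffers metals in most cells, ran the other way from Mt4 between basal and lower spinous cells, and both were lower again in upper spinous cells. Mt2 had 779.9, 907.9 and 885.8 CPM in basal, 572.6, 557.6 and 728.7 CPM in transitional, 243.7, 239.2 and 252.3 CPM in lower spinous and 11.6, 23.7 and 17.5 CPM in upper spinous cells. Mt1 stayed near its basal level in lower spinous cells, with 1408, 1361 and 1517 CPM against 1720, 2056 and 1989, and then dropped to 402.4, 389.2 and 505.5 CPM in upper spinous cells. Against basal cells Mt1 fell by 0.43 (adjusted p = 0.0023) and Mt2 by 1.80 on the log2 scale (adjusted p = 6.0e-11), by edgeR's quasi-likelihood test. Relative to upper spinous cells the values were 1.73 and 3.75 higher (adjusted p = 7.3e-12 and 1.1e-13). Mt3, a brain form, was barely present, at 1.47 CPM or less in each lower spinous library.

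The 250 bases before the RefSeq start of Mt4 and of Mt2 are shown because these neighbours moved in opposite directions from basal to lower spinous cells. Capitals mark the core of the metal response element, TGCACNC or TGCGCNC on either strand, the sequence through which zinc activates metallothionein genes. It occurs in 21.4% of 32851 such windows of mouse genes, and at least 3 times in 1.26%. The Mt4 window, chr8:94136954-94137203, and the Mt2 window, chr8:94172368-94172617, are both on the plus strand of GRCm38.p6.
Mt4: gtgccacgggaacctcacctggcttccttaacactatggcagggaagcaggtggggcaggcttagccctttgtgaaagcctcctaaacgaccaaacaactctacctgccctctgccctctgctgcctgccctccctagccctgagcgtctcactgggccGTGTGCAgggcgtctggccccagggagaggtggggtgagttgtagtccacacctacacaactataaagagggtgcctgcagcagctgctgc
Mt2: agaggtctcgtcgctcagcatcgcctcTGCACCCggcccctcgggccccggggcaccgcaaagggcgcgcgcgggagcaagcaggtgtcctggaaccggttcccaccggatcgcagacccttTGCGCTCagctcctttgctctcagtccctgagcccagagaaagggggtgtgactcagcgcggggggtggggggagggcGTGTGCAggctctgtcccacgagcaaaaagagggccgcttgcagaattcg
The Mt4 window holds 1 match, 91 bases before the start, and a TATAAA box 30 bases before it. The Mt2 window holds 3 matches, 223, 128 and 50 bases before the start. A match is a description of the letters only and says nothing of binding in these cells.

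Gene by gene comparisons used the UMIs summed per class and library, with edgeR's quasi-likelihood test, library as a block, Benjamini-Hochberg adjustment and a call at an adjusted p under 0.05. The genes of the gates were not tested. Classes cut by expression must differ in genes that go with the gates, so the counts describe how far apart these layers lie and how repeatably, not an effect of a treatment. Against basal cells 3184 of 10737 genes rose (29.7%) and 3506 fell (32.7%). Against transitional cells 1326 rose (12.3%) and 1096 fell (10.2%), and against upper spinous cells 3317 were higher (30.9%) and 3099 lower (28.9%). With each UMI drawn at random for either the gates or the test, so that no molecule served both, 2671 genes rose and 2957 fell against basal cells, and 2682 were higher and 2582 lower than in upper spinous cells. The split depended on scaling: by total UMIs, which moved the median gene to -0.31 against basal, -0.26 against transitional and 0.24 against upper spinous cells, the counts became 2060 higher and 5214 lower, 536 and 2191, and 4191 and 2486. DESeq2 gave 803 higher and 1301 lower against transitional cells.

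Only a few genes were highest in this layer. A peak was set as a gene at least 1.5 times higher, with a call, than in basal, transitional and upper spinous cells each, and 44 of 10737 genes met it (0.41%). DESeq2 gave 27 and the separate UMIs 29. Of the 44, 15 reached 50 CPM. Mt4 stood far above the rest in level. Aldh3b2, an aldehyde dehydrogenase that works on lipid aldehydes, had 134.4, 113.1 and 132.2 CPM in lower spinous cells, against 19.1, 18.2 and 22.1 CPM in basal, 39.7, 55.7 and 72.5 CPM in transitional and 57.6, 47.9 and 73.8 CPM in upper spinous cells. Its lower spinous libraries lay above all others, 6.39-fold over basal (adjusted p = 3.2e-17), 2.15-fold over transitional (adjusted p = 8.2e-07) and 2.13-fold over upper spinous cells (adjusted p = 2.2e-09).

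Of the other named peaks, 5 had a similar shape at lower levels. Gsta2, a glutathione S-transferase, had 107.6, 121.4 and 127.1 CPM in lower spinous cells and 72.5, 67.9 and 74.2 CPM in upper spinous cells, a 1.67-fold difference (adjusted p = 2.1e-06), with 3.31 to 5.32 CPM in basal libraries. Agpat3, an acyltransferase of phospholipid synthesis, averaged 10.96, 37.0, 66.5 and 36.6 CPM from basal through transitional and lower to upper spinous cells. Slc12a2, the sodium, potassium and chloride cotransporter, averaged 19.6, 43.4, 81.5 and 53.1 CPM in the same order. Nt5c, a deoxyribonucleotidase, averaged 58.7, 80.3, 133 and 77.0 CPM. Adora2b, an adenosine receptor, averaged 11.8, 25.01, 54.7 and 35.9 CPM. For each of these 5 genes the 3 lower spinous libraries lay above those of the other 3 classes.

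Mmp2, a gelatinase that cuts basement membrane collagen, had a different shape. It stood at 68.9, 73.9 and 77.1 CPM in lower spinous cells, against 40.0, 41.6 and 30.8 CPM in basal and 34.0, 38.5 and 44.9 CPM in transitional cells, and then at 12.2, 8.08 and 10.5 CPM in upper spinous cells. It rose 1.98-fold over basal cells (adjusted p = 9.3e-09) and was 7.41-fold above upper spinous cells (adjusted p = 1.7e-13). Fibroblasts are a usual source of Mmp2, and their markers summed to 0.71 CPM or less in each lower spinous library. The source of the Mmp2 UMIs was not tested. Gadd45g, a stress and growth arrest gene, was less regular: its lower spinous values of 61.2, 63.6 and 30.5 CPM overlapped with the 26.0, 33.6 and 24.7 CPM of basal cells. Its call against transitional cells (log2 0.99, adjusted p = 0.0048) was lost at a mitochondrial limit of 5% (log2 0.57, adjusted p = 0.157). It was also lost without cells that carry markers of other types, where the difference was no smaller (log2 1.09, adjusted p = 0.0507). Ppdpf and Ell3, the second a transcription elongation factor, completed the 12 named peaks at 127 and 56.2 CPM against 66.9 and 37.1 CPM in upper spinous cells.

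**Figure D2:**
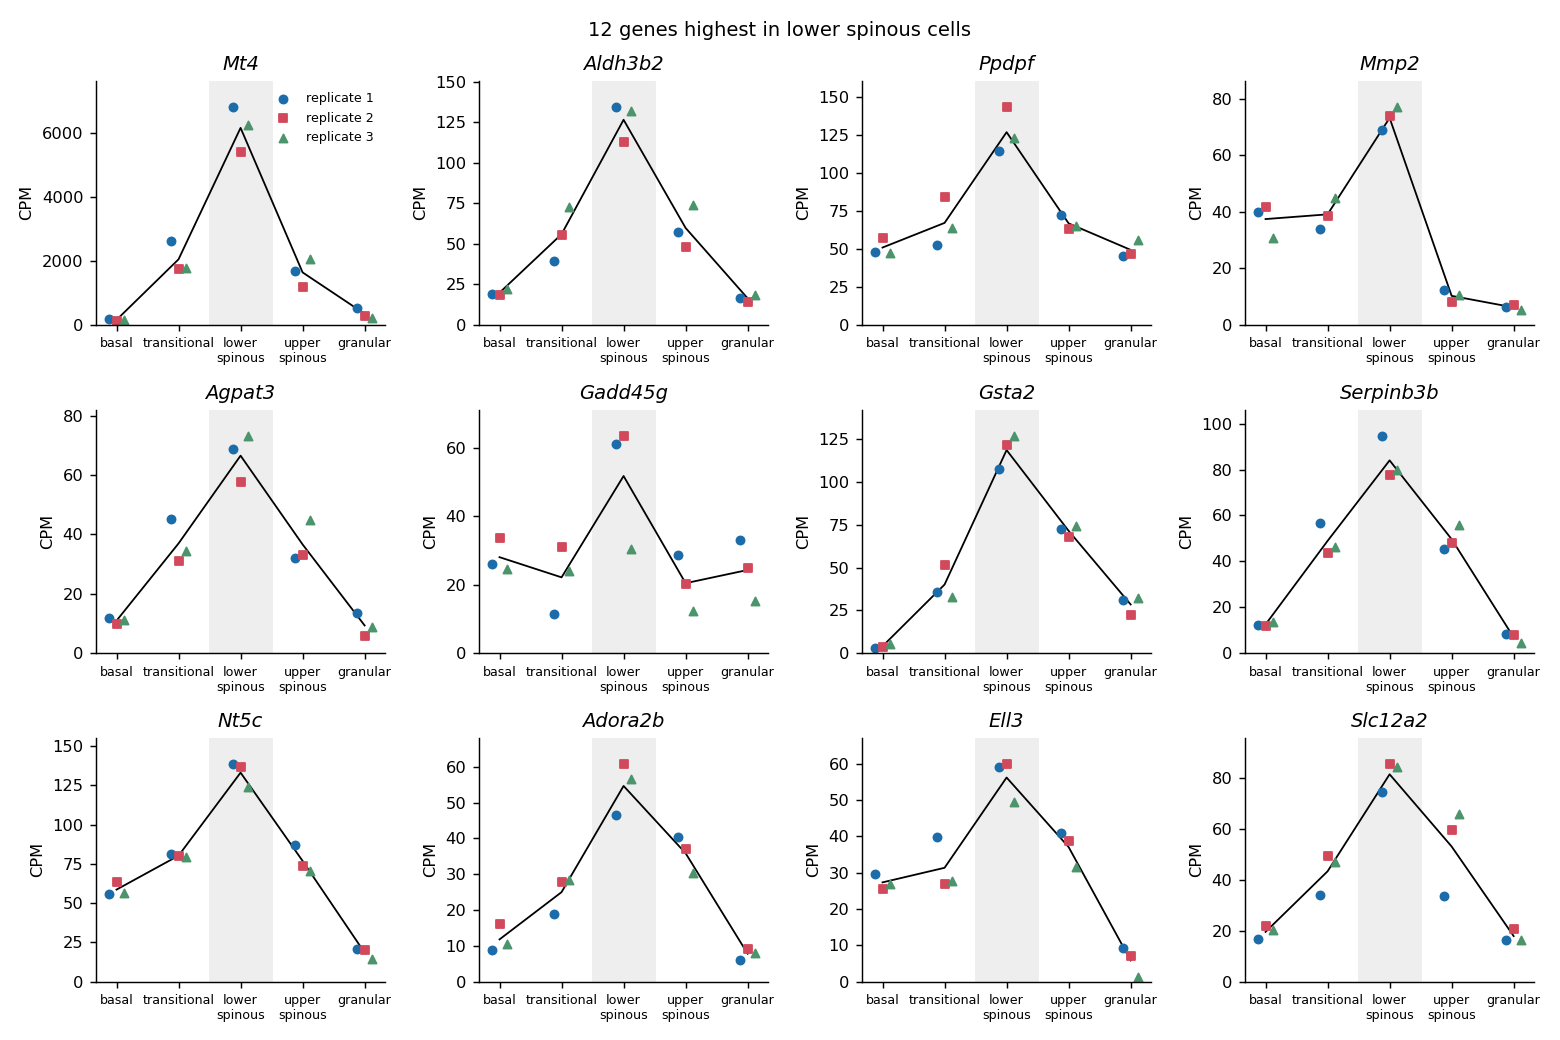
Level (vertical axis, CPM on a linear scale from 0, a different range in each panel) of the 12 named peak genes in 5 keratinocyte classes. Points are the 3 libraries, lines join class means and the lower spinous class is shaded. In replicate 3, Gadd45g is at 30.5 CPM in lower spinous cells, within the range of the basal libraries.

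A pair of neighbouring serpin genes on chromosome 1 peaked together. Serpinb3b had 94.8, 77.5 and 79.7 CPM in lower spinous cells, against 12.3, 11.7 and 13.7 CPM in basal, 56.7, 43.9 and 46.2 CPM in transitional and 45.4, 47.9 and 55.7 CPM in upper spinous cells. Serpinb3c had 37.3, 37.1 and 34.4 CPM, against 1.06, 1.00 and 1.86 CPM in basal, 17.0, 8.56 and 11.04 CPM in transitional and 13.8, 10.1 and 8.59 CPM in upper spinous cells. Both encode protease inhibitors of the squamous cell carcinoma antigen group. They are near-identical copies, and the annotated Serpinb3b model (chr1:107153940-107278361, GRCm38, minus strand) runs across Serpinb3c (chr1:107271201-107278371), so the division of reads between them is uncertain. The 250 bases before each RefSeq start, chr1:107161115-107161364 and chr1:107278372-107278621 (GRCm38.p6, minus strand, printed in the direction of transcription), are shown because the genes moved together. Capitals mark the TATAAA box.
Serpinb3b: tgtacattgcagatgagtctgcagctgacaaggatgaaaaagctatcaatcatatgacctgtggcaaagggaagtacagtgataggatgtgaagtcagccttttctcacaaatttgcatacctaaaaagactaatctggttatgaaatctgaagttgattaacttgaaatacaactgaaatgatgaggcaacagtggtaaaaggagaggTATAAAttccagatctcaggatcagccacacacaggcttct
Serpinb3c: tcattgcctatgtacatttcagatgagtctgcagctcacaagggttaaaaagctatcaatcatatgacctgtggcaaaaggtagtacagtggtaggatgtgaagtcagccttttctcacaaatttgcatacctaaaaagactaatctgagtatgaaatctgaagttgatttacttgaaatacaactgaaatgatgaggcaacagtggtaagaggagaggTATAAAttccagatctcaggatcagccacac
Of 240 aligned bases 229 (95.4%) are identical. The box lies 41 bases before the start in the first and 31 in the second, and TATAAA occurs on either strand in 12.4% of mouse windows of this length.

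Among the 29 peaks under 50 CPM were genes of clear shape but low level, named here after their values were seen. Gfra1, a co-receptor for the neurotrophic factor GDNF, averaged 0.311, 3.46, 18.7 and 4.90 CPM in basal, transitional, lower spinous and upper spinous cells. Tdh, a threonine dehydrogenase, averaged 0.347, 6.35, 23.3 and 6.77 CPM. Rara, a nuclear receptor for retinoic acid, averaged 15.2, 14.8, 26.0 and 13.2 CPM. The reverse shape was as frequent. By the same rule, which leaves out granular cells, 46 genes were lower in this layer than in each class compared (0.428%). Some of them were lower still in granular cells, such as Igfbp3 at 9.59 against 34.4 CPM. Of the 46, also named after their values were seen, Hopx, a homeodomain protein without DNA binding, averaged 103, 71.9, 47.7 and 216 CPM. Serpinb7 averaged 73.1, 30.5, 15.1 and 150 CPM.

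Against basal cells the largest rises by the naming rule were in Alox12 and Skint9. Alox12, a 12-lipoxygenase, went from 0.265, 0.111 and 0.621 CPM in basal to 74.6, 67.1 and 63.8 CPM in lower spinous cells (log2 7.46 ± 0.22, adjusted p = 4.8e-19). Skint9, of an immunoglobulin-like family expressed by keratinocytes, went from 0.928, 1.11 and 1.60 to 148.8, 161.2 and 161.4 CPM (log2 6.95 ± 0.17, adjusted p = 8.9e-20). Ly6g6c, a small surface protein of the Ly6 family, went from 14.8, 10.2 and 19.3 to 1307, 1411 and 1176 CPM (log2 6.45 ± 0.26, adjusted p = 9.7e-17). No basal library came near a lower spinous one in these genes. Besides Serpinb12 and Alox12e, described above, Tesc, Rhov, Nkd2, Slurp2 and Ly6g6e followed, with log2 rises of 6.24, 6.23, 6.17, 6.07 and 6.00. Nkd2 restrains Wnt signalling and Rhov is a small GTPase. Apart from Serpinb12 and Alox12e, all 8 were higher still in upper spinous cells, from a log2 difference of -0.26 for Rhov (adjusted p = 0.041) to -2.03 for Tesc.

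The largest falls against basal cells were in mitosis genes and Thy1. Cdk1, the kinase that drives entry into mitosis, went from 105.4, 64.0 and 102.0 to 0.888, 0.435 and 1.13 CPM (log2 -6.73 ± 0.28, adjusted p = 2.5e-16). Cenpf, Cdc20, Ccnb1 and Pbk, all used in mitosis, started from 118, 67.0, 50.5 and 53.0 CPM and ended at 1.10 CPM or less. Leaving out basal cells with at least 3 UMIs of cycle genes, a choice that empties the basal profile of these genes by construction, ended those calls and turned Cdk1, Cenpf and Pbk to 0.71, 1.26 and 1.80. Thy1, a surface glycoprotein that part of the basal cells carry, behaved differently: it went from 248.4, 206.1 and 224.7 to 3.20, 3.15 and 2.84 CPM (log2 -6.20 ± 0.19, adjusted p = 1.2e-18), and fell by 5.95 without the cycling basal cells.

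The step from transitional to lower spinous cells was smaller, and the transitional class was thin, with 30, 67 and 93 cells in replicates 1, 2 and 3. Without replicate 3 the calls were 757 higher and 602 lower. A doublet caller marked 8 of the 190 transitional cells. Without all cells that it marked, the calls were 1396 higher and 1048 lower. Without cells that carry at least 3 UMIs of markers of other cell types, the calls were 490 and 367. This leaves out 700 of the 1527 lower spinous cells (45.8%). The flag is not scaled to depth and counts the upper follicle and sebaceous markers, at 151 to 237 CPM in lower spinous libraries. It marked 46.9% of basal and 63.5% of upper spinous cells, so it does not measure the share of cells of other types. Nkd2, Tesc, Sdr16c6, Alox12e, Ly6g6c and Susd2 rose most, by 1.93, 1.92, 1.88, 1.85, 1.83 and 1.83 on the log2 scale. Tesc, which encodes the calcium-binding protein tescalcin, stood at 1.89, 30.0 and 26.9 CPM in transitional and at 75.3, 89.2 and 89.3 CPM in lower spinous cells (adjusted p = 1.9e-06). Basal genes that transitional cells still carried were the ones that fell most. Thy1 fell by 4.52 and Postn, a matrix protein of the basal zone, by 3.85 on the log2 scale. Krt15, a keratin of basal cells, went from 340.2, 342.5 and 222.9 to 9.23, 51.9 and 24.3 CPM, a fall of 3.40 (adjusted p = 1.8e-09). Ifitm3, S100a6 and the cyclin gene Ccnd1 fell by 2.99, 2.90 and 2.86.

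Against the upper spinous class the genes most in favour of lower spinous cells were basal genes not yet lost. They were Capg, S100a10, Col17a1, Mt2, Myof and Dst, 4.41, 3.98, 3.92, 3.75, 3.70 and 3.505 higher on the log2 scale. Genes of the late surface ran the other way. Cdsn, the corneodesmosome protein that holds dead cells together, had 5.86, 19.8 and 6.35 CPM in lower spinous and 1131, 1346 and 829.5 CPM in upper spinous cells, a log2 difference of -6.71 ± 0.39 (adjusted p = 3.6e-13). Serpina12, Ccl6, Nccrp1, Wfdc21 and Lypd5 were also among the 6 furthest apart, at -7.13, -6.89, -6.33, -6.28 and -6.06.

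The loss of the basal programme was uneven from gene to gene. Col17a1 (chr19:47646344-47692094, GRCm38, minus strand) encodes the transmembrane collagen of the hemidesmosome. It had 863, 937 and 916 CPM in basal, 807, 646 and 737 CPM in transitional, 184.6, 199.6 and 189.3 CPM in lower spinous and 9.41, 17.9 and 9.23 CPM in upper spinous cells. As a share of the basal level in the same library, lower spinous cells kept 21.4%, 21.3% and 20.7% and upper spinous cells 1.09%, 1.91% and 1.01%. Dst, the plakin that ties hemidesmosomes to keratin, kept 26.6%, 28.8% and 32.1%, and Itga6, its integrin partner in the same structure, kept 20.5%, 24.3% and 21.0%. Other parts of the structure kept more or less than this. Itgb4, the chain that pairs with Itga6, kept 9.53%, 13.5% and 9.59%, Cd151, a tetraspanin, 43.7%, 47.9% and 47.0%, and Plec 53.9%, 57.2% and 63.9%.

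Other basal genes set the range around these. Myof, a membrane repair protein, kept 48.4%, 44.4% and 46.3% of its basal level. S100a10, the annexin partner, kept 30.5%, 25.8% and 26.9%, and Capg, which caps actin filaments, 27.8%, 19.6% and 22.8%. At the low end Thy1 kept 1.29%, 1.53% and 1.26% and Itga3, the laminin-binding integrin, 0.583%, 2.75% and 0.755%, as low as Krt14 (1.10%, 1.62% and 1.72%), which the rule itself holds down. In replicate 1 these shares ran from 0.583% for Itga3 to 81.9% for Mt1. The part of free RNA in these levels was not tested. Without the cells that a doublet caller marked, 13 of them lower spinous, Col17a1 was 4.18 higher than in upper spinous cells on the log2 scale. The caller marked only 30 of the 5340 kept cells, 8 of them among the 190 transitional and 4 among the 2395 basal cells. The part of unmarked doublets was not tested.

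**Figure D3:**
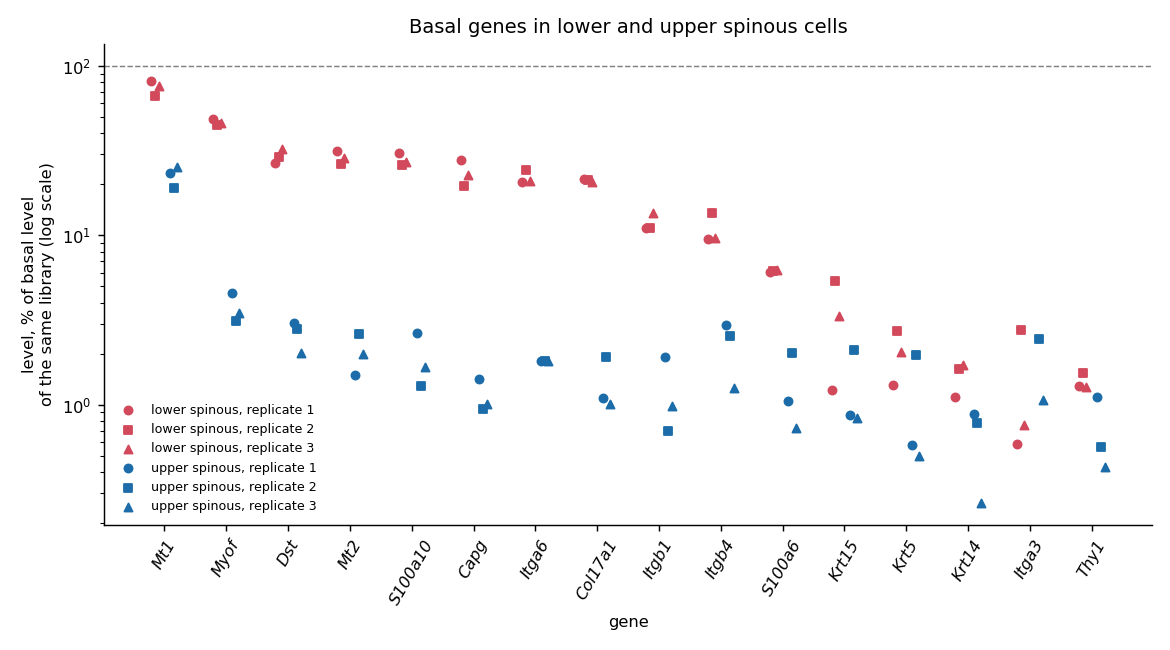
Level of 16 genes of basal cells in lower spinous (red) and upper spinous (blue) cells, as a percentage of the basal level of the same library (vertical axis, log scale; the dashed line is 100%). Symbols mark the 3 libraries, and a value of 0, Itga3 in upper spinous cells of replicate 1, is not drawn. Lower spinous points spread from Itga3 in replicate 1 at 0.583% to Mt1 at 66.2% or more.

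The lists below group genes by role and were chosen with earlier results of these libraries known. Example genes that are neither the largest rise nor the largest fall of a list were picked after their values were seen. Each count of a list is to be read against all genes tested, of which 29.7% rose and 32.7% fell against basal cells, and 30.9% were higher and 28.9% lower than in upper spinous cells. All 18 tested genes of basement membrane adhesion fell against basal cells, with a median log2 change of -2.72 against -0.04 over all genes. Against upper spinous cells 13 of the 18 were higher and 2 lower, Plec, the cytolinker plectin (144 against 176 CPM), and Lamc1, a laminin chain. Of 10 desmosome genes 8 rose against basal cells and 2 fell. Dsg1b and Dsg1a, cadherins of the upper layers, rose by 3.44 and 3.27 on the log2 scale, and Dsp, the desmosomal plakin, rose by 1.52. Dsg2 and Dsg3, the cadherins of deeper layers, fell by 4.40 and 2.01. Against upper spinous cells 6 of the 10 were lower and 2 higher, among them Dsg3 at 5.63 against 0.0962 CPM.

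Of 7 gap junction genes 6 rose against basal cells (29.7% of all genes rose) and 1, Panx1, fell slightly (log2 -0.34), a call lost in 6 of the alternatives. Gjb2 and Gjb5, connexins of the differentiating epidermis, rose by 5.63 and 2.10, and 5 of the 7 were lower than in upper spinous cells (28.9% of all genes were). Gja1, the connexin 43 gene, was instead 1.59 higher than in upper spinous cells, at 58.8 against 19.2 CPM. Of 14 tight junction genes 10 rose against basal cells and 1 fell, yet none was higher and 10 were lower than in upper spinous cells. Cldn4, a sealing claudin, had 2.25, 2.11 and 5.41 CPM in basal, 70.1, 90.5 and 68.8 CPM in lower spinous and 621.6, 739.8 and 573.9 CPM in upper spinous cells (log2 4.47, adjusted p = 3.5e-14, and -3.08, adjusted p = 1.5e-13).

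Notch signalling, in which a ligand on one cell activates a receptor on its neighbour, promotes the basal to spinous switch. Of 14 tested genes of the pathway 5 rose and 5 fell against basal cells, near the shares of all genes (29.7% and 32.7%), so the counts say nothing particular to the pathway. The receptor Notch3 had 3.84, 3.67 and 5.94 CPM in basal and 53.8, 51.5 and 59.99 CPM in lower spinous cells (log2 3.59, adjusted p = 1.7e-17), and Notch2 rose by 2.59. The target Nrarp, a feedback inhibitor, rose by 2.09 and Hes1, a repressor, by 1.66. The ligand gene Jag2 went from 100.5, 82.2 and 102.4 to 2.49, 3.04 and 3.63 CPM (log2 -4.91, adjusted p = 2.6e-17), the ligand gene Dll1 fell by 2.95, and Lfng, which adds sugars to the receptors, fell by 5.37. The third ligand gene tested, Jag1, rose by 0.71, and the receptor gene Notch1 did not pass the test (98.7 and 106 CPM, adjusted p = 0.37). Against upper spinous cells 4 were higher and 3 lower. Of 42 epidermal transcription factors 23 rose and 12 fell against basal cells, against 29.7% and 32.7% of all genes. Zfp750, Foxn1 and Grhl3, which promote terminal differentiation, rose by 4.59, 4.36 and 4.13. Trp63, the regulator of epidermal identity, fell by 0.42 (adjusted p = 0.00028), and Bnc1, basonuclin, fell by 4.81.

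Lipid synthesis genes stood between the basal and the upper spinous level. All 24 cholesterol synthesis genes rose against basal cells and all 24 were lower than in upper spinous cells, with medians of 2.01 and -1.01 on the log2 scale. Mvd, Sqle and Stard4 rose by 3.52, 3.46 and 2.77. By total UMIs 23 of the 24 rose and 24 were lower. Of 33 tested genes of ceramide and barrier lipids 27 rose and 2 fell against basal cells, and 25 were lower and none higher than in upper spinous cells. Elovl4, which makes the very long fatty acids of acylceramides, had 5.44, 9.00 and 14.8 CPM in basal, 485.0, 437.9 and 479.6 CPM in lower spinous and 814.2, 727.3 and 869.6 CPM in upper spinous cells. Of 14 retinoid genes 8 rose and 2 fell against basal cells, led by the binding proteins Rbp2 (log2 4.89) and Fabp5 (4.42).

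Late barrier genes were mostly still far below the upper spinous level. Of 33 tested envelope and filaggrin family genes 7 rose and 6 fell against basal cells, and 27 were lower and 1 higher than in upper spinous cells, with a median of -2.58. Krtdap, a keratinocyte differentiation peptide, rose most, by 3.74, from 850.05 CPM in basal to 11166 CPM in lower spinous cells, with 13752 CPM in upper spinous cells. The basal side of this count rested on few cells: 8 of the 2395 basal cells had 1% or more of UMIs on Lor and held 8551 of the 9545 Lor UMIs of that class (89.6%). With the limits on Lor and stress genes also set on basal cells, 9 of the list rose and 1 fell. Of 33 proteases and inhibitors 20 rose and 7 fell against basal cells (29.7% and 32.7% of all genes), and 25 were lower than in upper spinous cells (28.9% of all genes). Tmprss4, a membrane serine protease, rose by 5.41 and Klk5, a kallikrein of desquamation, by 3.34, the latter to 22.0 CPM against 385 CPM in upper spinous cells.

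The Skint and Ly6 families of surface proteins rose in large part. All 10 tested Skint genes rose against basal cells, with a median of 4.57 on the log2 scale, and 7 were lower and 2 higher than in upper spinous cells. Skint7, at 3.16 against 0.387 CPM in upper spinous cells, was 1 of the higher 2. Of 13 Ly6 and Slurp genes 9 rose and 2 fell, Ly6c1 and Ly6a, by 2.16 and 1.37. Clade B serpins were divided, with 6 of 12 up and 6 down against basal cells. Serpinb13 rose by 5.59, whereas Serpinb6a went from 245 to 46.2 CPM, a fall of 2.40. Of 17 S100 and calmodulin-like genes 7 rose and 7 fell, against 29.7% and 32.7% of all genes. Calm4 and Calml3, calmodulin-like proteins of differentiating keratinocytes, rose by 3.59 and 3.40, and S100a6 fell by 4.02.

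Division and glycolysis genes were mostly lower than in basal cells. Of 46 cell cycle genes 45 fell against basal cells, with a median of -4.55. With basal cells of at least 3 UMIs of cycle genes left out, 36 of the list could be tested. Of these, 12 were higher and 3 lower in lower spinous cells. A shift upwards follows from this filter, which empties the basal profile of the list and was not set on lower spinous cells. The same flag marked 32.3% of lower spinous, 36.9% of upper spinous and 45.0% of basal cells. It is a count of UMIs not scaled to depth, and both spinous classes were deeper than basal cells. These are therefore not shares of dividing cells. Pcna, the replication clamp, fell only by 1.01, to 25.6 CPM. Ttk, a mitotic kinase, was the 1 riser at 0.69, with 21.0 CPM in lower spinous and 44.3 CPM in upper spinous cells. Of 16 glycolysis genes 10 fell and 2 rose against basal cells, and 12 were higher and 1 lower than in upper spinous cells. Slc2a1, the glucose transporter GLUT1, averaged 29.9, 18.1, 5.89 and 0.994 CPM from basal through transitional and lower to upper spinous cells. The enzyme gene Gapdh averaged 1173, 729, 691 and 317 CPM.

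Of 29 cytokine and growth factor genes 10 rose and 14 fell against basal cells, where 29.7% of all genes rose and 32.7% fell. Cxcl14, a chemokine of resting epidermis, fell by 4.42, from 282 to 13.2 CPM, and Il15 rose by 2.28 to 12.6 CPM. Of 22 immediate early genes 12 rose and 4 fell, but by total UMIs 4 rose and 5 fell and by DESeq2 7 rose and 4 fell, so that direction depends on scaling. Egr3 rose by 2.85 and Klf6 by 1.29, and Cyr61 (log2 -3.52), a target of YAP signalling, fell. Of 14 heat shock genes 5 rose and 5 fell, near the shares of all genes (29.7% and 32.7%). Hspb1, the small heat shock protein, had 231.1, 371.9 and 248.6 CPM in basal, 1525, 2009 and 1514 CPM in lower spinous and 6117, 6203 and 4810 CPM in upper spinous cells. Enzymatic release of cells is known to induce immediate early and heat shock genes, and its part in these values was not tested.

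**Figure D4:**
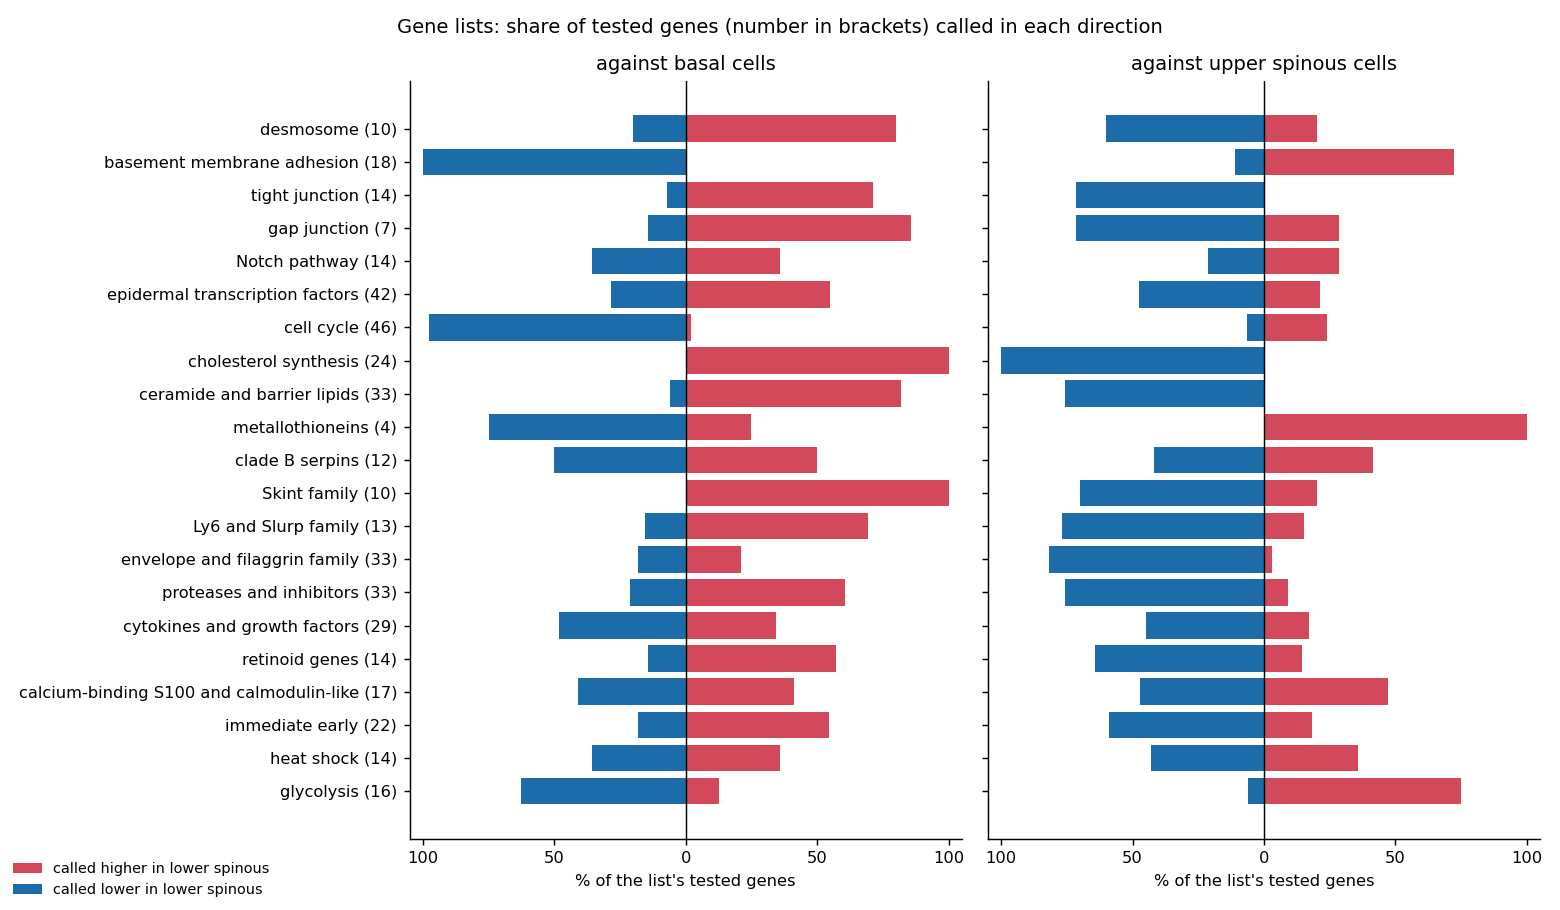
Share of the tested genes of each of 21 lists (number tested in brackets) called higher (red, to the right) or lower (blue, to the left) in lower spinous cells, against basal cells on the left and upper spinous cells on the right. Cholesterol synthesis and ceramide genes are mostly red on the left and blue on the right, and basement membrane adhesion is the reverse.

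Within the class, cells were first divided by whether any Krt5 or Krt14 UMI was left. In replicates 1 and 2 the division was at 0 UMIs, with 125 cells with and 144 without, and 292 with and 390 without. In replicate 3 it was at 0.00392%, with 288 cells on each side, and 285 cells of the class had no such UMI. Both sides had nearly the same share of Krt1 and Krt10 (medians of 1.43% and 1.41% in replicate 1, 1.116% and 1.113% in replicate 2, and 1.30% and 1.35% in replicate 3). The division was made on gate genes, so genes that go with Krt5 and Krt14 must differ between the sides. It was not repeated with division and test on separate UMIs. Of 9387 genes 153 (1.63%) were higher and 138 (1.47%) lower in cells with these basal keratins. These counts rested on replicates 2 and 3: they were 23 and 10 without replicate 2 and 83 and 56 without replicate 3, and DESeq2 gave 29 and 11. Krt15 went with them at 15.6, 119 and 48.3 CPM against 4.69, 3.53 and 2.21 CPM (log2 4.34 ± 0.21, adjusted p = 3.5e-21), and so did S100a6 at 349, 271 and 377 against 55.2, 52.6 and 66.6 CPM (log2 2.49, adjusted p = 1.3e-33). Tspo and Ifitm3 were 1.57 and 1.37 higher. Nupr1, Skint10, Ank3 and Mpzl3 were lower by small amounts (log2 -0.41 to -0.36), and without replicate 2 none of these 4 kept its call, with adjusted p from 0.144 to 0.304.

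Hemidesmosome transcripts were not confined to the cells with basal keratin UMIs. Col17a1 had 227.8, 250.4 and 238.3 CPM in cells with Krt5 or Krt14 UMIs. It still had 169.9, 180.7 and 161.7 CPM in cells without, or in replicate 3 in cells at or under the cut. The log2 difference was 0.49 ± 0.05 (adjusted p = 1.2e-09 by edgeR's test). Cells were divided on gate genes and tested on the same UMIs, so a difference in genes that go with them was built in. Dst had 118.5, 187.8 and 197.3 CPM against 119.7, 161.8 and 122.2 CPM, with overlap. Thy1 behaved like the keratins, at 5.61, 6.98 and 5.66 CPM against 1.44, 0.416 and 0.246 CPM (log2 3.29). Mmp2 had 76.1, 72.4 and 81.1 CPM against 71.4, 83.2 and 82.6 CPM, a difference of -0.06 ± 0.08 that did not pass the test (adjusted p = 0.82). These genes were looked at after their values were known.

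The suprabasal keratins themselves were unevenly spread over cells. With each cell thinned to 3000 UMIs (263, 661 and 560 cells deep enough), Krt10 was seen in all lower spinous cells and Krt2, the partner keratin of differentiated ear and sole skin, in 97.0%, 97.4% and 98.6%. Krt1, the partner that textbooks give Krt10, was seen in only 22.1%, 19.5% and 15.5%, against 44.0%, 35.6% and 61.0% of transitional and 3.75%, 13.7% and 3.31% of upper spinous cells. Basal cells, which the rule selects for little Krt1 and Krt10, showed it in 14.4%, 11.1% and 15.4% of cells. Krt1 and Krt10 belong to the gates, so these shares are a description. A lower spinous cell without Krt1 had to hold Krt10 to meet the rule. Before thinning the lower spinous shares were 32.7%, 28.0% and 25.2%, and the basal ones 28.9%, 18.0% and 28.3%. Krt2 had 13179, 10657 and 13426 CPM in lower spinous, 6850, 4920 and 8131 CPM in transitional and 23780, 17770 and 30035 CPM in upper spinous cells.

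A minority of cells carried much Krt1. Cells with 5 or more Krt1 UMIs of 3000 numbered 25, 61 and 26 (9.51%, 9.23% and 4.64% of the thinned cells). Picked for Krt1, they had mean Krt2 UMIs of 10.8, 10.9 and 14.3, against 43.6, 34.8 and 44.8 in cells with no Krt1 UMI. Krt10 was closer, at 41.9, 30.1 and 36.9 against 44.6, 36.6 and 45.1. The rule asks for Krt10 where Krt1 is missing, so these Krt10 values are a description. Serpinb12 was also lower in them, at 0.32, 0.459 and 0.385 UMIs against 1.205, 0.959 and 1.01. They were shallower before thinning, with a median of 13845, 10108 and 10743 UMIs against 21420, 13558.5 and 14591. Krt77, another type II keratin, averaged 0.04, 3.16 and 4.81 UMIs in them against 0.0049, 0.0132 and 0 in cells with no Krt1 UMI. The part of depth in these differences was not tested.

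**Figure D5:**
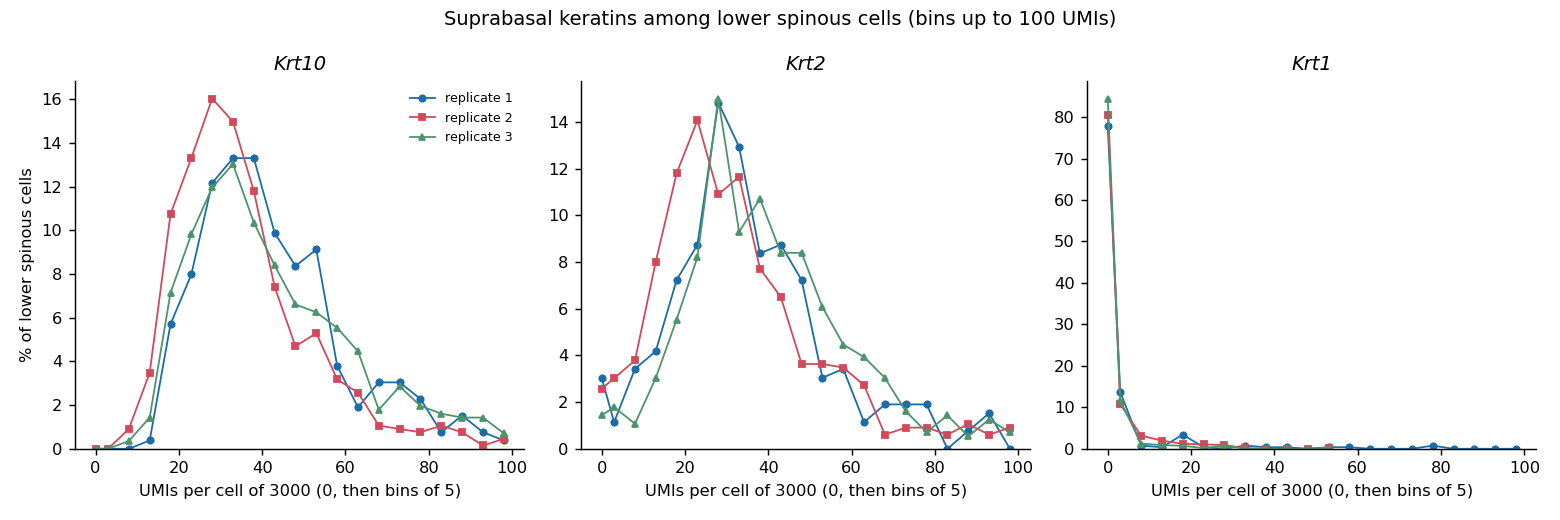
Distribution of Krt10, Krt2 and Krt1 over lower spinous cells thinned to 3000 UMIs (horizontal axis, UMIs per cell, at 0 and then in bins of 5, drawn up to 100; vertical axis, percentage of cells with a separate range in each panel). Lines are the 3 libraries. Krt10 and Krt2 form a single broad hump, whereas Krt1 piles up at 0. The rule itself holds Krt10 away from 0 in cells without Krt1.

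Pairs of genes varied together across cells within a library, given here as descriptions, since cells share a library. Krt10 and Krt2 went together (Pearson r = 0.62, 0.66 and 0.60 in replicates 1, 2 and 3). Sbsn, suprabasin, and Hspb1 went together (0.65, 0.63 and 0.58), while Sbsn and the apolipoprotein gene Apoe went apart (-0.45, -0.42 and -0.46), as did Sbsn and Mt2 (-0.40, -0.41 and -0.42). Between classes these genes moved the same way. Sbsn averaged 136, 1063, 3466 and 11389 CPM from basal through transitional and lower to upper spinous cells, and Apoe 3734, 2385, 1704 and 290 CPM. Sbsn thus ran against Apoe and Mt2 both between the classes and among the cells of the lower spinous class.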

How the data were processed

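Droplet 5′ single-cell libraries (10x V(D)J kit, with short cDNA added back) were sequenced for 3 replicates of 1 group. Raw UMI counts per gene and cell were deposited as 1 matrix per replicate, made with Cell Ranger 3.1.0 on mm10 per the submitters' processing notes; other settings are not given in the sources used here. The matrices hold 6078 barcodes with 15926683, 24480473 and 28176712 UMIs in replicates 1, 2 and 3. Of these, 395 had under 500 genes and 598 over 10% mitochondrial UMIs, which left 5340 cells. Scrublet marked 30 doublets, which were kept (13 lower spinous), and 16 barcodes occurred in more than 1 library (8 lower spinous cells).

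UMIs were summed per class and library (15 profiles) and fitted with edgeR 4.0.16 in R 4.3.3 (TMM, filterByExpr, quasi-likelihood test, library as block, Benjamini-Hochberg), after a check on simulated data. CPM are TMM-scaled. Same-numbered profiles come from the same library and their deviations correlated by r = 0.21 to 0.35 over 6959 genes, so the block is the main fit. DESeq2 1.42.0 was an alternative, and Scrublet was run through scanpy 1.11.5.

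The gates, the members and the gene lists were chosen with earlier results of these data known. Named genes are the largest called differences of at least 50 CPM. They comprise 10 rises and 6 falls against basal, 6 each way against the other classes, 12 peaks and 4 each way within the class. The libraries compared do not overlap, a condition that was not set on the peaks. Genes with only an accession or a clone number for a name were passed over. The extremes of each list and the given markers were named as well. Other genes named were picked after their values were seen. Coordinates are those of GENCODE M21 (GRCm38), and sequences are from RefSeq (GRCm38.p6).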

Additional observations from a re-analysis of the deposited data

How the results depend on the processing

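Of 111 named pairs of gene and comparison between classes, 98 kept the same call in every setting that tested them, whereas Nupr1, Skint10, Ank3 and Mpzl3 within the class did not. Limits on Lor and stress genes for basal cells, and leaving out shared barcodes, were added after seeing the data. Total UMIs in place of TMM gave 2060 genes higher than in basal cells, 536 higher and 2191 lower than in transitional cells, and 79 lower in lower spinous cells with Krt5 or Krt14 UMIs. DESeq2 gave 803 higher than in transitional cells, 27 peaks, all among the 44, and 29 higher and 11 lower within the class. Gates and test on separate UMIs gave 819 genes higher than in transitional cells and 29 peaks (25 shared), and a mitochondrial limit of 5% gave 814 and a mean share of lower spinous cells of 32.8%. Leaving out cells with at least 3 UMIs of markers of other types, a flag not scaled to depth, removed 700 of 1527 lower spinous cells. In that setting 2232 genes were lower than in basal cells, and 490 were higher and 367 lower than in transitional cells. The share of the class was 25.1% with the upper gene limit at 0.05% and 33.6% at 0.2%, where 30 and 54 genes peaked. Without the replicate block 2865 and 3195 genes were called higher and lower than in basal cells, 1089 and 964 against transitional and 3123 and 2892 against upper spinous cells, with 36 peaks.

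Leaving out 1 replicate at a time gave 30 to 40 peaks, 2646 to 2875 genes higher and 3099 to 3206 lower than in basal cells, 757 to 988 and 602 to 839 against transitional, 2630 to 2953 and 2626 to 2856 against upper spinous cells, and 23 to 171 and 10 to 138 within the class. The direction turned for Cdk1 (0.71), Cenpf (1.26) and Pbk (1.80) without cycling basal cells, for Btc (0.37) and Lipn (0.91) with the Lor and stress limits on basal cells, and for Serpinb11 (0.035) without cells that carry markers of other types. Besides the removal of cycling cells, which takes out the cells that hold those genes, the cause was not tested.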
